A study of Mus musculus with 2 samples.

Results

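Folding isomerases and chaperones of the endoplasmic reticulum (ER) were compared between alveolar macrophages of PIKfyve knockout and wild type mice. The members were the genes of rows with 1 symbol whose name marks an FK506-binding protein (Fkbp), a numbered protein disulphide isomerase (Pdia) or a cyclophilin from Ppia to Ppih, together with 14 named ER chaperones, folding enzymes and transcription factors of the unfolded protein response. The rule used symbols only, not measured values, but it was chosen with earlier results of these data known. It gave 36 genes on 37 rows, of 22180 genes on 41345 rows in all. Rows of Ppia, Pdia4 and Ppih carry a second symbol and were therefore left out, and no row was found for Fkbp6, Fkbp10 or Pdia2.

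The array labelled knockout came from adult C57BL6 mice with floxed Pikfyve alleles and LysM-Cre, a Cre recombinase expressed from the lysozyme 2 locus, which is active in myeloid cells at large and not in alveolar macrophages alone. The array labelled wild type came from adult C57BL6 littermates with the floxed alleles and, per the labels, no Cre. The kinase PIKfyve forms phosphatidylinositol 3,5-bisphosphate from its precursor lipid on endosomal and lysosomal membranes. Lungs were digested with collagenase, cells negative for the dye DAPI and positive for Siglec-F and CD11c were sorted, and amplified cDNA from 10 ng of total RNA was hybridised. There was 1 array per genotype and the number of mice behind each is not given in the labels, so the values have no replicate error and no difference was tested.

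Proteins that enter the secretory pathway fold in the ER, where BiP and GRP94 hold unfolded chains, calnexin and calreticulin bind glycoproteins, disulphide isomerases join cysteines, and FKBPs and cyclophilins turn the peptide bond before proline. When unfolded chains accumulate, the sensors ATF6, IRE1 and PERK raise the transcription of these genes through cleaved ATF6, spliced XBP1 and ATF4. Other FKBPs and cyclophilins work in the cytosol, the nucleus and mitochondria, several of them as partners of HSP90. Alveolar macrophages take up and degrade surfactant and secrete lysozyme, cytokines and lysosomal enzymes that pass through the ER.

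Values are log2 signals. Background was set at the 95th percentile of 1428 olfactory, vomeronasal and taste receptor genes, 5.31 on the array labelled knockout and 5.37 on the array labelled wild type. Genes were analysed when their mean level was at least 5.13, the median row of the table, which held for 35 of the 36 members and 12516 genes in all. The local spread, 0.20 to 0.33, is the scatter of differences among genes of like level, and it holds noise and real differences alike. Pikfyve itself read 5.95 on the array labelled knockout and 5.68 on the array labelled wild type, above 98.2% and 96.3% of the receptor genes. That row does not check the labels, since nothing in the labels or the table places its probes inside or outside the deleted part. The sorted cells carried alveolar macrophage markers: 12 of 12 measured ones lay above background on both arrays, and their median difference (knockout minus wild type) was 0.11. Of these, Krt79 (-0.98) and Siglecf (-0.73), whose product was used in the sort, were more than 1.5-fold lower, and Fabp4 (0.62) was more than 1.5-fold higher, with Marco at 0.57.

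Fkbp11 was the only member at least 2-fold apart, and the share of members reaching 1 local spread was close to that of all genes. Of the 35 members analysed, 1 was at least 2-fold higher in the array labelled knockout and 0 were 2-fold lower, against 0.927% and 0.336% of all genes analysed. At 1.5-fold, 2 members were higher and 0 lower, against 4.45% and 2.66% of all genes. Any difference upwards was seen in 20 members and downwards in 14, against 48.9% and 49.6% of all genes, and the median difference (knockout minus wild type) was 0.02, against 0.00 over all genes. Differences reached 1 local spread in 12 of the 35 members (34.3%), against 34.6% of all genes. Without Fkbp11 the remaining 34 members ranged from -0.35 to 0.59 with a median of 0.02.

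**Figure D1:**
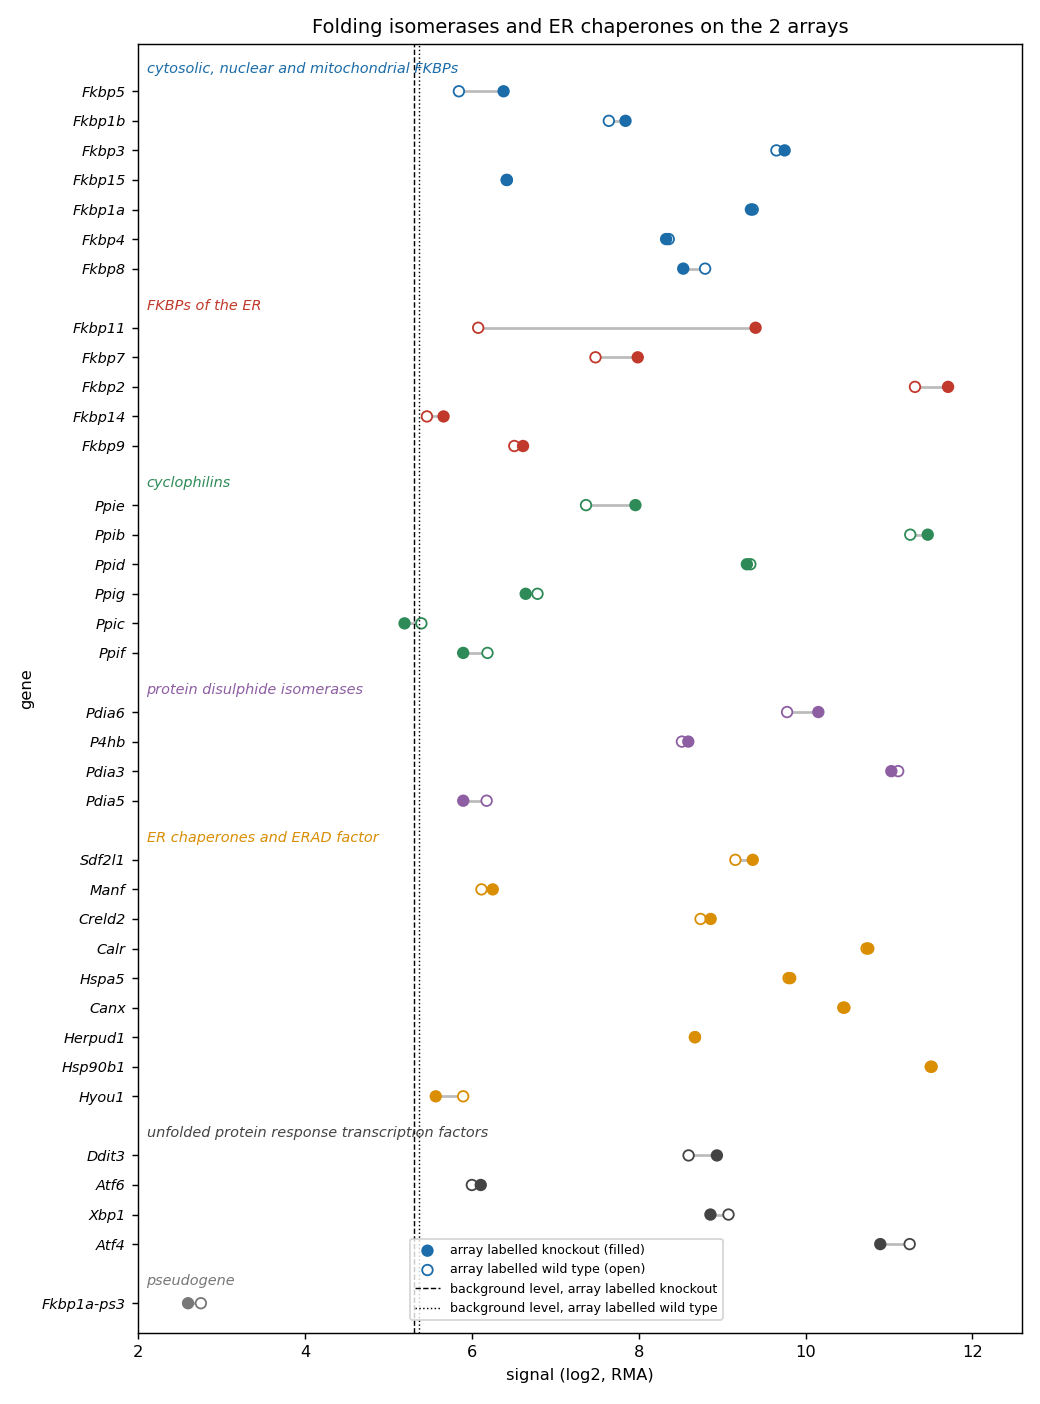
Signal (log2, RMA) of each member on the array labelled knockout (filled) and the array labelled wild type (open), grouped by class, with the background level of each array as a dashed and a dotted line. Fkbp11 lies at 9.40 on the array labelled knockout and 6.08 on the array labelled wild type, and most other pairs of points nearly coincide.

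Fkbp11 encodes an FKBP of the secretory pathway, anchored in the ER membrane and abundant in cells that secrete much protein. Its row read 9.40 on the array labelled knockout and 6.08 on the array labelled wild type. Both values lay above background, the lower by less than 1 log2 unit. The difference of 3.33, a 10.0-fold higher signal in the array labelled knockout, was 10.5 times the local spread and ranked 4th of the 12516 genes. Of the genes with larger differences, the chemokine receptor gene Cxcr1 lay above background on both arrays and differed by 3.41. The wax alcohol acyltransferase gene Awat1 and the immunoglobulin segment Igkv8-30 lay under background on the array labelled wild type, so their differences are bounds: measured from that background, they were at least 15.8-fold and at least 9.55-fold higher. With every value under background raised to it, Fkbp11 ranked 3rd. Along its chromosome the 10 analysed genes next to it, 5 on each side, differed by -0.17 to 0.40, and 0 of them by 1.5-fold. Its nearest analysed neighbours Ccdc65 and Arf3 differed by 0.40 and -0.04. Ccdc65 read 5.35 on the array labelled knockout and 4.95, under background, on the array labelled wild type. It was thus analysed only through its signal on the array labelled knockout.

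RefSeq gives Fkbp11 a pair of start sites, and both promoter windows (250 bases before to 50 after a start) are shown because this is the member with the large difference. Capitals mark CCACG on either strand, the part of the ER stress element that ATF6 and XBP1 bind.
Fkbp11, upstream window (GRCm38.p6, chr15:98728149-98728448, minus strand): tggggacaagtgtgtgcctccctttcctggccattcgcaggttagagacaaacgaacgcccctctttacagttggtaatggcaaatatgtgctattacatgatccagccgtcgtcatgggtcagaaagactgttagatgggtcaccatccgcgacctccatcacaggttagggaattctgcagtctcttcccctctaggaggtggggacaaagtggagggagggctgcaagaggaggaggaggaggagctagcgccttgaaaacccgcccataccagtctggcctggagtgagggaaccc
Fkbp11, downstream window (GRCm38.p6, chr15:98727578-98727877, minus strand): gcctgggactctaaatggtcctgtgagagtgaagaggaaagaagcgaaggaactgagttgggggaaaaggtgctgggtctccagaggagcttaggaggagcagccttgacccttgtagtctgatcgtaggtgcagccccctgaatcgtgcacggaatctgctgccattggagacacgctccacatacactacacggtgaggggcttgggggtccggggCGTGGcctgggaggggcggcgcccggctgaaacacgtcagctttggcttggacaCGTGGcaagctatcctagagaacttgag
The upstream window holds no CCACG. The downstream window holds it at 2 places on the reverse strand, starting at base -32 and at base 23 from the start. Neither window holds the complete ER stress response element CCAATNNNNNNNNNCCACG, its second form ATTGGNCCACG, or the XBP1 site TGACGTGG. Of all genes with a promoter window, 35.5% hold CCACG on either strand, so its presence is common.

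Among the FKBPs of the ER, all 5 measured genes read higher in the array labelled knockout, against 48.9% of all genes analysed, with a median difference of 0.40. Of the 5, only Fkbp11 passed 2-fold, against 0.927% of all genes that were 2-fold higher. Fkbp7, which binds BiP, read 7.99 on the array labelled knockout and 7.48 on the array labelled wild type, a 1.42-fold difference. Fkbp2, a small soluble FKBP of the ER lumen, read 11.71 on the array labelled knockout and 11.31 on the array labelled wild type, a difference of 0.40. The 2 differences were 1.60 and 1.95 times the local spread. Fkbp14, which acts on collagen, differed by 0.20 and lay near background at 5.66 on the array labelled knockout and 5.46 on the array labelled wild type. The 2 rows of Fkbp9 differed by 0.05 and 0.16. Without Fkbp11 the median of the class was 0.30.

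FKBPs outside the ER split in direction, with 3 of 7 higher, 4 lower and a median of 0.00. Fkbp5, an HSP90 partner that lowers the hormone affinity of the glucocorticoid receptor and is itself induced by glucocorticoids, read 6.38 on the array labelled knockout and 5.84 on the array labelled wild type. That is a difference of 0.54, a 1.45-fold one and 2.09 times the local spread. Fkbp4, its counterpart in the same receptor complexes, differed by -0.03. Fkbp1a, the cytosolic receptor of tacrolimus and rapamycin, read 9.34 on the array labelled knockout and 9.37 on the array labelled wild type. Fkbp1b, which binds ryanodine receptors, differed by 0.20, and Fkbp3, a nuclear member, by 0.10. Fkbp15, which sits on early endosomes, read 6.42 on both arrays. Fkbp8, of the outer mitochondrial membrane, was the lowest of the class, at 8.53 on the array labelled knockout and 8.80 on the array labelled wild type, a difference of -0.26 that lay within the local spread of 0.31. The pseudogene Fkbp1a-ps3, the 1 member left out by the filter, read 2.60 on the array labelled knockout and 2.75 on the array labelled wild type, below background on both.

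**Figure D2:**
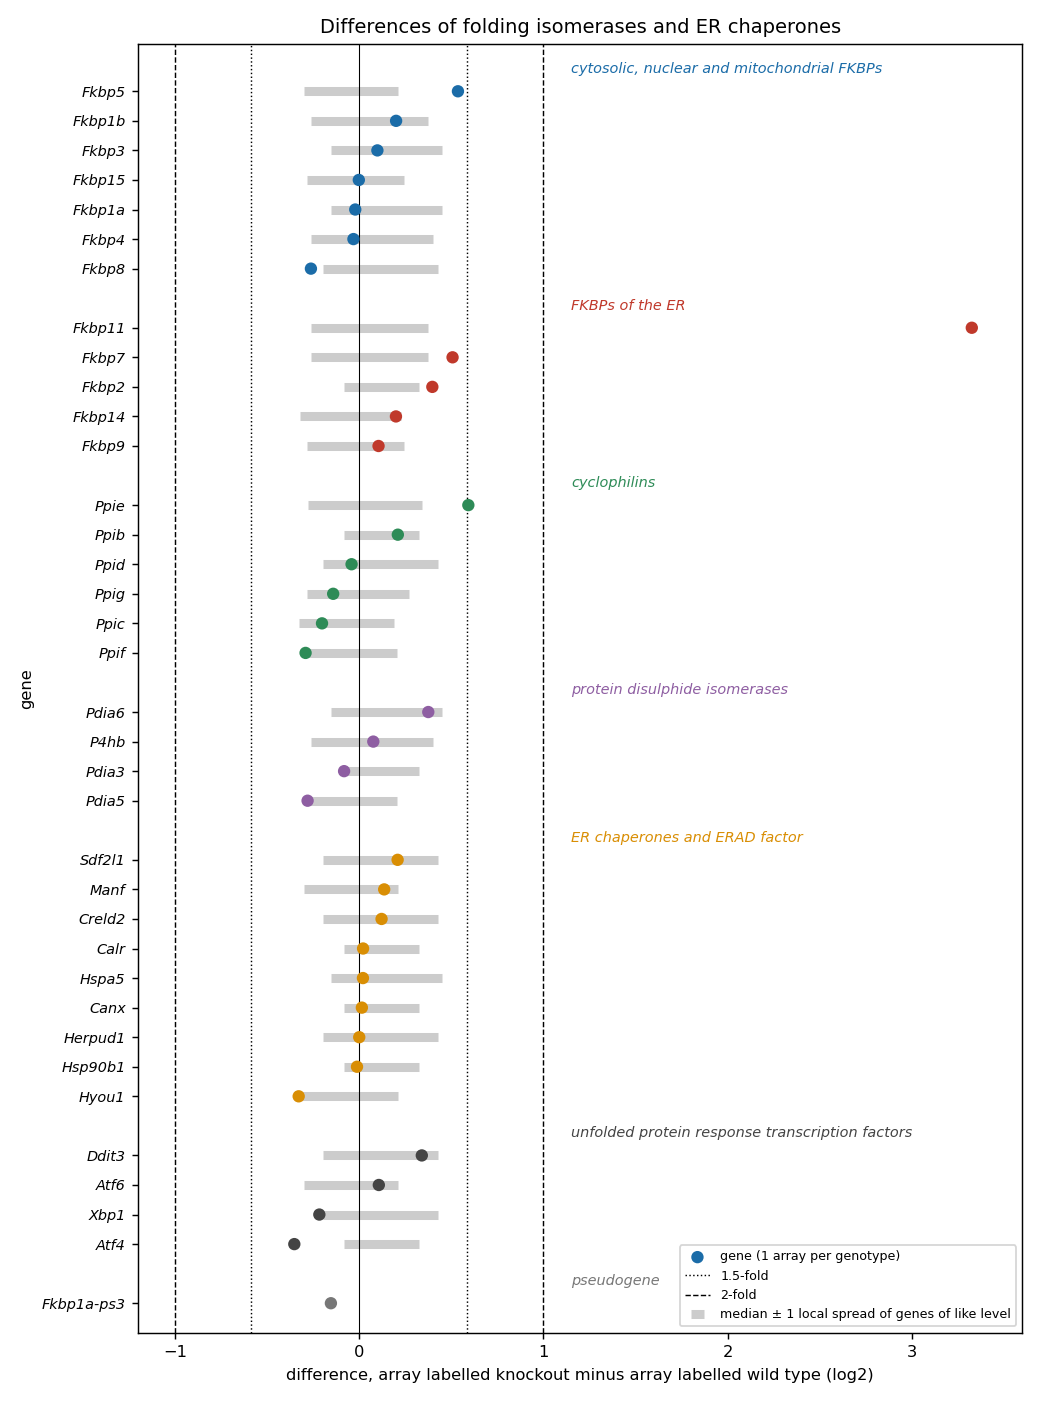
Difference (log2, array labelled knockout minus array labelled wild type) of each member, with grey bars for the median and 1 local spread of genes of like level and lines at 1.5-fold and 2-fold. Fkbp11, at 3.33, lies alone beyond 2-fold, Ppie, at 0.59, sits on the 1.5-fold line, and the ER chaperones cluster near 0, with Hyou1 the lowest at -0.33.

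Cyclophilins were higher in 2 of 6 cases and lower in 4, with a median of -0.09. Ppie, a cyclophilin of the spliceosome, read 7.96 on the array labelled knockout and 7.37 on the array labelled wild type, a 1.51-fold difference. It was the other member past 1.5-fold and lay just beyond that limit, at 1.90 times the local spread. Ppib, the abundant cyclophilin of the ER, read 11.46 on the array labelled knockout and 11.26 on the array labelled wild type. Ppid, an HSP90 partner, differed by -0.04, and Ppig, a nuclear protein with a serine- and arginine-rich tail, by -0.14. Ppif, the regulator of the mitochondrial permeability transition pore, read 5.90 on the array labelled knockout and 6.19 on the array labelled wild type. Ppic, a cyclophilin of the secretory pathway, read 5.19, under background, on the array labelled knockout and 5.40 on the array labelled wild type.

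Protein disulphide isomerases had a median of 0.00 over 4 genes, with 2 higher and 2 lower. Pdia6, which also binds the stress sensor IRE1, read 10.15 on the array labelled knockout and 9.78 on the array labelled wild type, a 1.30-fold difference. P4hb, the founding member and a subunit of collagen prolyl hydroxylase, differed by 0.08. Pdia3, which folds glycoproteins with calnexin and helps load MHC class I, read 11.03 on the array labelled knockout and 11.11 on the array labelled wild type. Pdia5, a less studied member, read 5.90 on the array labelled knockout and 6.18 on the array labelled wild type, a difference of -0.28.

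The main ER chaperones, classical targets of the unfolded protein response, differed little between the arrays. Hspa5, which encodes BiP, read 9.82 on the array labelled knockout and 9.80 on the array labelled wild type. Hsp90b1, which encodes GRP94, read 11.50 on the array labelled knockout and 11.51 on the array labelled wild type. The lectin chaperone genes Calr and Canx differed by 0.02 and 0.01. All 4 of these values lay within 0.03 of 0, against local spreads of 0.30 for Hspa5 and 0.20 for the others. The median difference of genes of like level was 0.15 for Hspa5 and 0.12 for the others, so all 4 lay below it.

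Of the other ER stress responders of that class, 3 read higher by less than 1 local spread, 1 was equal and 1 lower. Sdf2l1, a partner of the ER HSP40 proteins, differed by 0.21, the secreted factor gene Manf by 0.14 and the secreted factor gene Creld2 by 0.12. Herpud1, which recruits ubiquitin ligases for ER-associated degradation (ERAD), held an identical value, 8.67, on both arrays, as did 197 of the genes analysed. Hyou1, the nucleotide exchange factor of BiP, was the lowest, at 5.57 on the array labelled knockout and 5.90 on the array labelled wild type, a difference of -0.33 and 1.23 times the local spread in size. Over the 9 genes the median was 0.02, and 8 stayed within 1 local spread. Of the 9, 3 lay above the median of the genes of like level.

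Transcription factors of the response did not move one way. Ddit3, which encodes CHOP, read 8.94 on the array labelled knockout and 8.60 on the array labelled wild type, a 1.27-fold difference. Atf4 read 10.90 on the array labelled knockout and 11.25 on the array labelled wild type, the lowest difference of all members, -0.35, and 1.73 times its local spread in size. Xbp1 read 8.86 on the array labelled knockout and 9.08 on the array labelled wild type, and Atf6 differed by 0.11. These rows measure total mRNA, so XBP1 splicing, ATF6 cleavage and ATF4 translation, the steps by which the sensors act, were not measured.

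Promoter windows were found for 29 of the 36 members, and 6 of them (20.7%) hold the complete ER stress response element, against 0.137% of all 27025 genes with a window. Classical targets of the unfolded protein response were named in the choice of members, so these shares are not a test. The elements are shown because the classical chaperone genes share them, with the conserved letters in capitals and the spacer in lower case, read along the strand of the element. Herpud1 holds the second form, found in 0.0444% of genes.
Calr, ERSE (GRCm38.p6, chr8:84847075-84847093, plus strand): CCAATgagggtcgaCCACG
Canx, ERSE (GRCm38.p6, chr11:50325800-50325818, minus strand): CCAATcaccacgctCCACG
Creld2, ERSE (GRCm38.p6, chr15:88819520-88819538, minus strand): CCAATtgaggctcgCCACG
Hsp90b1, ERSE (GRCm38.p6, chr10:86705533-86705551, plus strand): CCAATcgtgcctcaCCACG
Hsp90b1, ERSE (GRCm38.p6, chr10:86705638-86705656, minus strand): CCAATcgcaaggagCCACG
Hspa5, ERSE (GRCm38.p6, chr2:34772025-34772043, plus strand): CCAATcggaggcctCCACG
Pdia6, ERSE (GRCm38.p6, chr12:17266491-17266509, plus strand): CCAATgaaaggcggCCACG
Herpud1, ERSE-II (GRCm38.p6, chr8:94386377-94386387, plus strand): ATTGGgCCACG
The 6 genes with a complete element differed by -0.01 to 0.37, with a median of 0.02 and with Pdia6 the highest. Fkbp11 is not among them, and whether the element has a part in any difference was not tested. The whole window of Hspa5 is shown as the model of such a promoter, with the complete element in capitals.
Hspa5 (GRCm38.p6, chr2:34771840-34772139, plus strand): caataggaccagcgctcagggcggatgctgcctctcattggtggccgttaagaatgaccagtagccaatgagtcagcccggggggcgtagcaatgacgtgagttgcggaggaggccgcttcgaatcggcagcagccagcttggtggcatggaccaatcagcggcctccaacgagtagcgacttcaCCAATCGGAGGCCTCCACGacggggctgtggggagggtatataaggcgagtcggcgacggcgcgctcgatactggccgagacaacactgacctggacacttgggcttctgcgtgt
The XBP1 site TGACGTGG was found in Fkbp1b only (0.714% of all genes) and the ATF4 element TGATGCAA in Herpud1 only (1.03% of all genes). CCAAT alone was found in 22 of 29 members (75.9%), against 41.1% of all genes, and CCACG alone likewise in 22 (75.9%). CCAAT and CCACG are parts of the complete elements, so these counts overlap. All motifs were searched on both strands. A match describes the letters in the window and is not a measured binding site.

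**Figure D3:**
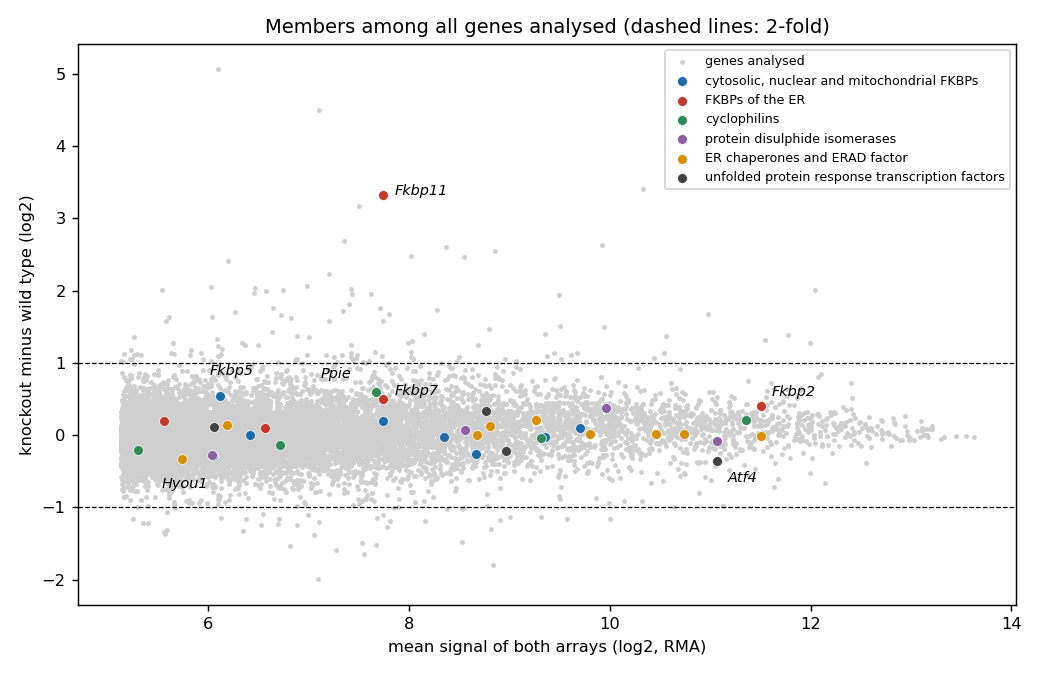
Difference (log2) against mean signal of both arrays (log2) for all 12516 genes analysed (grey) and the 35 members (coloured by class). Fkbp11 stands apart at 3.33, and the other members lie inside the cloud of genes, most of them in the upper part of the range of levels.

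Members lay at high levels: 23 of 35 fell among the 3129 genes with the highest mean signal, those above 7.71. The median difference was 0.02 over the members in that range and 0.11 over all genes in it. Across all 35 members, 17 lay above the median of the genes in their own level bin.

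Genes of the same machinery outside the rule were examined in lists, named by the members with the largest differences in size. Other ER folding and redox enzymes had a median of 0.07 over 24 genes, with 16 higher and 2 at least 1.5-fold higher. Over all genes analysed the shares were 48.9% and 4.45%. Sil1, the other exchange factor of BiP, read 8.31 on the array labelled knockout and 7.60 on the array labelled wild type, a difference of 0.71. Selenom, a thioredoxin-like selenoprotein, differed by 0.63, with its signal on the array labelled wild type under background, the peroxiredoxin gene Prdx4 by 0.57 and the reductase gene Dnajc10 by 0.52. Other peptidyl-prolyl isomerases had a median of 0.00 over 9 genes, with the spliceosomal cyclophilin Cwc27 at 0.60 and the FKBP-like gene Fkbpl at 0.57. Ranbp2, of the nuclear pore, was at -0.29 and Nktr at -0.22.

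Translocon and signal peptide genes, through which chains enter the ER, were higher in 20 of 22 cases, against 48.9% of all genes, with a median of 0.20. At 1.5-fold, 0 were higher, against 4.45% of all genes, a count near that share. Spcs2, of the signal peptidase, read 8.50 on the array labelled knockout and 7.99 on the array labelled wild type. Ssr3 differed by 0.39, Sec11c by 0.35 and Srprb by 0.33. Of these 22 genes, 17 lay above the median of their level bin. Glycan processing, lectin and ERAD genes had a median of 0.08 over 22 genes, with the mannosidase-like Edem3 at 0.68, Mcfd2 at 0.41 and Derl1 at 0.39, and with the glucosidase gene Mogs at -0.62 and under background on the array labelled knockout.

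Sensors and targets of the unfolded protein response had a median of 0.01 over 20 genes, 10 higher and 10 lower. The cystine transporter gene Slc7a11 read 6.99 on the array labelled knockout and 5.74 on the array labelled wild type, a difference of 1.25, and the asparagine synthetase gene Asns read 6.90 on the array labelled knockout and 5.95 on the array labelled wild type. Both are known ATF4 targets, and 2 others, Ppp1r15a and Atf3, were lower, at -0.81 and -0.56. Slc7a11 came under 2-fold with only its row of highest mean (0.81) and with an offset of 32 on the linear scale (0.89), and a filter at the 75th percentile of rows left it out.

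Cytosolic and mitochondrial chaperones were lower in 12 of 17 cases, against 49.6% of all genes, with a median of -0.13. Of the 17, 1 lay above the median of its level bin. The heat shock gene Hspa1a read 9.43 on the array labelled knockout and 10.58 on the array labelled wild type, and its near-identical copy Hspa1b, which probes may not tell apart, differed by -0.66. Hsph1 and Hsp90aa1 differed by -0.32 and -0.31. Glucocorticoid receptor targets, which include the class of genes Fkbp5 belongs to, had a median of 0.00 over 12 genes, with Dusp1 at -0.60, Tsc22d3 at 0.32, the receptor gene Nr3c1 at -0.29 and Per1 at -0.19.

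**Figure D4:**
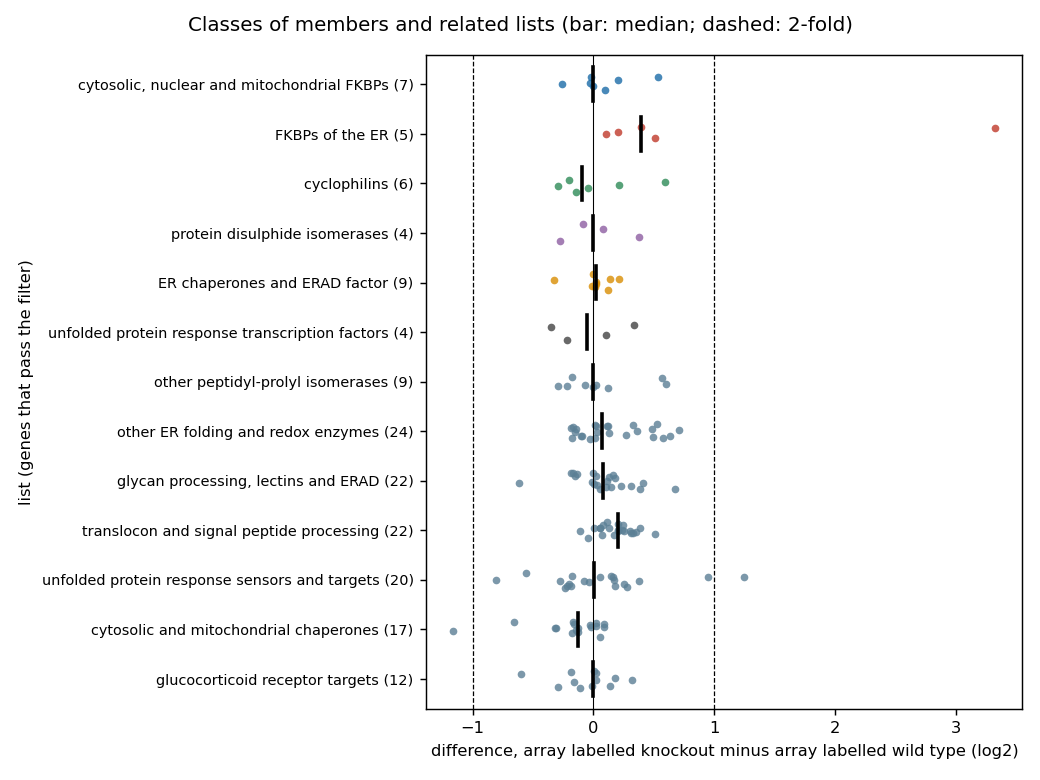
Differences (log2, array labelled knockout minus array labelled wild type) of the genes in each class of members (coloured) and each related list (blue-grey), 1 point per gene that passed the filter, with the median as a bar. ER FKBPs have the highest class median, 0.40, and the translocon list lies to the right at 0.20, while the cytosolic chaperones lie to the left at -0.13.

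Markers of other lung cells are given beside Fkbp11, since secretory cells and plasma cells express it. In this bulk RNA a larger share of a cell type and more RNA per cell cannot be told apart. For the marker counts, 48.9% of all genes analysed were higher and 49.6% lower. At 1.5-fold, 4.45% of them were higher and 2.66% lower, 7.11% in all. Of 10 plasma cell markers, 7 lay above background on each array and were analysed, 4 higher and 3 lower. Of these 7, 0 were 1.5-fold apart, a count too small to tell from the share over all genes. Their summed linear signal over all 10 was 992 in the array labelled knockout and 895 in the array labelled wild type. The receptor gene Tnfrsf17 differed by 0.47, the transcription factor gene Prdm1 by -0.31, Sdc1 by 0.30 and Jchain, at 8.69 on the array labelled knockout and 8.41 on the array labelled wild type, by 0.28. Irf4, Tnfrsf13b and Eaf2 lay under background on both arrays.

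Immunoglobulin segments, a list added after values were seen, differed in both directions. Of 20 measured, 14 were analysed, 11 higher and 3 lower, with a median of 0.56. At 2-fold, 4 were higher and 1 was lower, against 0.927% and 0.336% of all genes analysed. Their summed linear signal over all 20 was 4057 in the array labelled knockout and 2612 in the array labelled wild type. Igkv9-120 read 10.13 on the array labelled knockout and 7.58 on the array labelled wild type. Igkv15-103 differed by 1.67 and Igkv4-91 by -1.24. Igkv8-30 was analysed only through its signal on the array labelled knockout, 8.63, against 3.57 on the array labelled wild type. Igkv6-23, at 2.33 on the array labelled knockout and 5.67 on the array labelled wild type, was left out by the filter although it read lower by more than 2-fold. Ighm read 6.35 on the array labelled knockout and 6.32 on the array labelled wild type. Of 7 analysed B cell markers, 4 were higher and 3 lower, with Ebf1 at -0.48, Vpreb3 at 0.27, Cd79a at -0.15 and Blnk at 0.10. At 1.5-fold, 0 of the 7 were apart, against 7.11% of all genes, a count too small to tell from that share.

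Airway secretory markers were higher in 7 of 8 cases with a median of 0.55, and their summed linear signal over 10 genes was 7760 in the array labelled knockout and 5809 in the array labelled wild type. Bpifa1 read 9.78 on the array labelled knockout and 7.32 on the array labelled wild type, Scgb3a1 differed by 1.47, Scgb3a2 by 0.99 and Cyp2f2 by 0.65. Muc5b was the lower one, at -0.34, and Sec14l3 and Aldh1a7 lay under background on both arrays. Alveolar type 2 markers had a median of 0.08 over 8 genes, of which 3 were at least 1.5-fold higher and 1 lower: Cxcl15 differed by 0.92, Sftpa1 by 0.84, Sftpc by 0.78 and Napsa by -0.84. Sftpb, Sftpd, Lamp3 and Slc34a2 lay under background on both arrays. The summed signal over 10 genes was 1686 in the array labelled knockout and 1735 in the array labelled wild type. Its strongest parts were Napsa and Sftpc, which went opposite ways. Napsa read 9.07 on the array labelled knockout and 9.91 on the array labelled wild type. Sftpc read 9.14 on the array labelled knockout and 8.36 on the array labelled wild type.

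Neutrophil markers were higher in 8 of 10 cases, with all 10 above background on both arrays and a summed signal of 9644 in the array labelled knockout and 7019 in the array labelled wild type. Camp differed by 1.09, Retnlg by 0.93, Ly6g by 0.78 and Mmp8 by 0.70, while Csf3r differed by -0.64. Eosinophil markers had a median of 0.71 over 4 genes: Ear6 differed by 2.62 and Siglecf by -0.73, while Prg2 (1.05) and Epx (0.37) lay under background on the array labelled wild type. Prg2 and Epx were analysed only through their signal on the array labelled knockout, so the filter favours a higher reading for them and for the median. Their summed signal was 2950 in the array labelled knockout and 1142 in the array labelled wild type. Without Ear6 it was 548 in the array labelled knockout and 753 in the array labelled wild type. The strongest signal in that remainder was Siglecf, also an alveolar macrophage marker. Siglecf read 8.54 on the array labelled knockout and 9.27 on the array labelled wild type. Of the 3 analysed genes in the remainder, Siglecf was lower, and the 2 higher ones were Prg2 and Epx, with the limit just given. Ccr3, Il5ra, Prg3 and Alox15 lay under background on both arrays.

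T and NK cell markers had a median of 0.51 over 6 genes, 5 higher and 1 lower. Their summed signal was 1064 in the array labelled knockout and 695 in the array labelled wild type. Gzma differed by 1.14, Cd3d by 0.78, Nkg7 by 0.55 and Cd3g by 0.48. Cd3e, above background on both arrays, was the lower one at -0.13. Ncr1, Il7r and Klrb1c lay under background on both arrays. Monocyte markers had a median of -0.41 over 8 genes, 3 higher and 5 lower, with Fn1 at -1.54, Ms4a4c at -1.33, Plac8 at -1.02 and Ly6c2 at -0.69. Ccr2 differed by -0.13, and the higher ones were Cx3cr1 (0.25), Chil3 (0.13) and S100a4 (0.05). The summed signal over the 9 measured was 11754 in the array labelled knockout and 11463 in the array labelled wild type. Its strongest part was Chil3, also an alveolar macrophage marker. Of 8 fibroblast markers 3 were analysed, with Inmt at 0.77, Col1a1 at 0.17 and Col3a1 at 0.13. What part any of these cells have in the Fkbp11 difference was not tested.

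**Figure D5:**
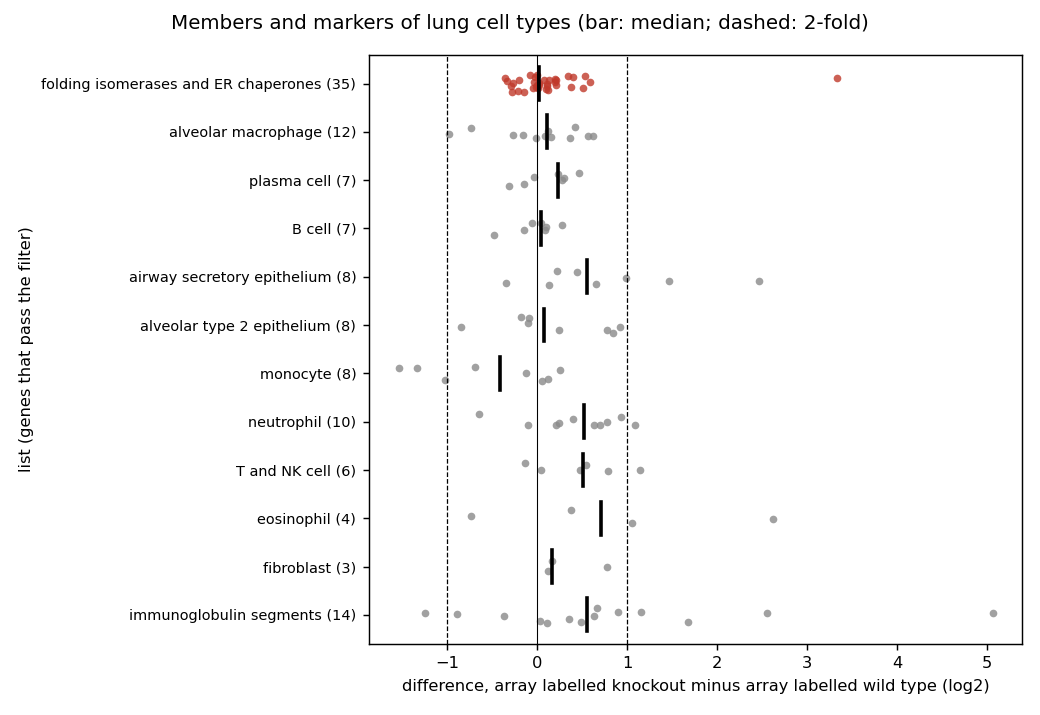
Differences (log2, array labelled knockout minus array labelled wild type) of the 35 members (red) and of marker genes of lung cell types (grey), 1 point per gene that passed the filter, with the median as a bar. Plasma cell markers lie within 1.5-fold on both sides of 0, airway secretory and neutrophil markers lie mostly to the right, and the 4 eosinophil markers spread from -0.73 to 2.62.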

How the data were processed

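Sorted alveolar macrophages gave 1 Affymetrix array per genotype. The deposited table holds log2 values, made by the authors with RMA (background correction, normalisation and probe summary), per the submitters' processing notes; base 2 is inferred from RMA and the range (0.77 to 13.86), and neither an RMA version nor a genome build is stated. Rows were named through the platform's gene annotation: 23521 have 1 symbol, 1814 several, 16010 none. Rows of a gene were averaged. The filter, background level and local spread (1.4826 times the median absolute deviation in 20 bins of level) are defined in the text. With 1 array per genotype no test was possible, and the number of arrays limits precision. Differences are array labelled knockout minus array labelled wild type. Scripts used Python 3.11.15 and were tested on simulated data. Promoter windows are from RefSeq (GRCm38.p6). The members and lists were chosen with earlier results of these data known. Of each list, up to 4 analysed genes with the largest absolute difference were named by rule; other list genes and all immunoglobulin segments were chosen after their values were seen. Alternatives covered filters, normalisation between arrays, a linear offset, the choice of row and thresholds.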

Additional observations from a re-analysis of the deposited data

How the results depend on the processing

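Fkbp11 was at least 2-fold higher under all 10 alternatives, the only member so called in each, and its difference ranged from 2.83 (offset of 32 on the linear scale) to 3.39 (median centring). The lower limit of 1.5-fold is less stable: 1 member, not 2, was higher with quantile normalisation, with loess centring (span 0.3) and with the offset, where Ppie fell short (its lowest difference was 0.51), and 3 were higher with median centring, where Fkbp5 reached 0.60. The median of the members ranged from 0.01 to 0.09 and that of the ER FKBPs from 0.33 to 0.46. Of 35 members, 26 kept the sign of their difference, 8 did not, and 1 (Herpud1) was equal as deposited; those 8 differed by at most 0.04 as deposited; median centring moved the median of all genes to 0.07. Over all genes the counts moved more. With no filter, 175 were 2-fold higher and 117 lower, and 969 and 833 at 1.5-fold; a filter at the 75th percentile of rows gave 371 and 175 at 1.5-fold. Median centring left 219 genes 1.5-fold lower, against 333 as deposited. The offset left 62 higher and 18 lower at 2-fold and 293 and 121 at 1.5-fold. A threshold of 3-fold gave 37 and 4, and 3 local spreads gave 197 and 93. No paired analysis was possible because each genotype has 1 array. Signals near background, as for Ppic and Fkbp14, limit what a small difference can show.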
